A study of Mus musculus with 13 samples.

Results

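The 8 genes Glul, Oat, Slc1a2, Axin2, Lgr5, Tbx3, Rhbg and Ctnnb1 were followed in mouse liver as genes of the pericentral hepatocyte and of the Wnt pathway that maintains it. Members were chosen by name: a probe belonged to the set when its gene name in the scanner files was one of these symbols or an older synonym of one. That gave 16 of the 41174 probes and 8 of the 27670 gene names on the array, and all 8 genes were among the 20392 genes tested.

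RNA from the livers of 13 male C57BL/6 mice was hybridised to 1-colour expression arrays of Agilent, each array carrying the RNA of 1 mouse. The animals of all groups had been kept on a western-style diet rich in fat over 5 months, so no group on ordinary chow enters any comparison here. The 5 TAKI mice carried the SIRT1 TA KI allele, the 3 TEKI mice the SIRT1 TE KI allele and the 5 WT mice WT SIRT1. SIRT1 is an NAD-dependent protein deacetylase, and the series concerns how phosphorylation of one of its threonines bears on energy metabolism. The labels name no promoter or Cre that would restrict the alleles to the liver, and they give no age at the time of sampling.

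Liver lobules are zoned along the flow of blood. Endothelial cells of the central vein secrete Wnt ligands and R-spondin, and these stabilise beta-catenin (Ctnnb1) in the hepatocytes next to the vein. Beta-catenin then acts with TCF/LEF factors at the genes of the pericentral programme. That programme takes up glutamate and ammonium and turns them into glutamine, which catches the ammonium that the urea cycle of the periportal zone has let through. Glul is glutamine synthetase, Slc1a2 a glutamate transporter, Oat the mitochondrial ornithine aminotransferase that yields glutamate semialdehyde, and Rhbg an ammonium transporter. Axin2 is a scaffold of the destruction complex and a general feedback target of the pathway, Lgr5 a receptor for R-spondins, and Tbx3 a T-box transcription factor.

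None of the 8 genes passed the adjusted threshold of 0.05 in any of the 3 comparisons between genotypes. Levels below are log2 of the processed intensity minus the 75th percentile of the same array, so 0 is the signal of the probe at that percentile. Levels of different probes cannot be set against each other. In total 575 of 20392 genes (2.82%) passed in TAKI against WT livers, 1 gene (0.0049%) in TEKI against WT livers and 704 genes (3.45%) in TEKI against TAKI livers (limma, Benjamini-Hochberg adjustment over all genes). In TAKI against WT livers 383 of the called genes were higher and 192 lower, and in TEKI against TAKI livers 505 were higher and 199 lower. Those splits moved with the scaling. In TAKI against WT livers they were 579 higher and 420 lower when arrays were divided by their median, 525 and 355 with quantile normalization, 856 and 159 with no scaling, and 168 and 479 with normexp, which turns the balance. In TEKI against TAKI livers they were 520 higher and 503 lower with the median, 495 and 636 with quantile normalization, 345 and 261 with no scaling, 4024 and 171 with normexp, and 377 and 722 without TEKI replicate 1. With 8 genes, a count of 0 lies near the background share in each case. At an unadjusted p under 0.05 there was 1 of the 8 genes in each comparison, against 14.7% of all genes in TAKI against WT, 11.6% in TEKI against WT and 12.1% in TEKI against TAKI livers. The nearest to the threshold, none past it, were Glul in TAKI livers set against either other genotype and Rhbg in TEKI against WT livers.

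The 2 first promoter pieces below are shown for the pair of genes whose levels moved together from liver to liver (Slc1a2 and Oat). The other is shown for Glul, whose TAKI livers lay lowest with the tested probe, with no difference past the adjusted threshold. Each runs from 250 bases before to 50 bases after the annotated start, 5′ to 3′ on the strand of the gene, from RefSeq with build GRCm38.p6. Capitals mark a match to CTTTGA or CTTTGT, core letters of the TCF/LEF motif, searched on both strands. The pieces are Slc1a2 at chr2:102706188-102706487 (plus strand), Oat at chr7:132576349-132576648 (minus strand) and Glul at chr1:153899679-153899978 (plus strand).
Slc1a2: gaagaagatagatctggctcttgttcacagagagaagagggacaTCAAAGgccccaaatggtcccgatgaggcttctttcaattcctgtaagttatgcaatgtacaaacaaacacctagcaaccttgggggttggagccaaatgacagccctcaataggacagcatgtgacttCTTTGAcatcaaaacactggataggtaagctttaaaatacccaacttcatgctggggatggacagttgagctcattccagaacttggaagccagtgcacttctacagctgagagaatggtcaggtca
Oat: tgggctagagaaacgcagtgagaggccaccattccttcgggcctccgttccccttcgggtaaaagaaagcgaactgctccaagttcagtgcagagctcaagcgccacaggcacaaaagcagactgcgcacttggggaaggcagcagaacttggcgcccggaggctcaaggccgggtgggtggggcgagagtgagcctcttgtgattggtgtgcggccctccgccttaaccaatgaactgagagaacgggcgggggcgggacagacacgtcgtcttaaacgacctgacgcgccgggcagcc
Glul: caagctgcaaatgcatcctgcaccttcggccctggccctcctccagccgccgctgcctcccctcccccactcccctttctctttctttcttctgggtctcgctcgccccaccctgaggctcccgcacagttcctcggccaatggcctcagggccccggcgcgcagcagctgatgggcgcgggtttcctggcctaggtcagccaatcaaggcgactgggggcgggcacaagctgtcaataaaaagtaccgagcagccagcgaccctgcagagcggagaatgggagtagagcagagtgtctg
The Slc1a2 piece held 2 matches, both of CTTTGA, at positions -77 to -72 on the strand of the gene and -206 to -201 on the opposite strand. The Oat and Glul pieces held 0 matches in this window. Of 32851 promoter pieces of this length, 31.2% held at least 1 match and 6.68% held at least 2. CTTTGA alone was in 16.0% of the pieces and CTTTGT alone in 18.7%. The RefSeq pieces of Axin2 and Ctnnb1 held 0 matches as well, and Lgr5, Tbx3 and Rhbg were not matched to a piece.

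Between 60.5% and 73.1% of spots were well above background on 12 arrays and 86.8% on TEKI replicate 1, which also had 87 non-uniform spots against 1 to 6 elsewhere. Replicate arrays of one genotype correlated at 0.965 or more over all genes. Genotype and slide overlapped only in part: the 3 TEKI arrays shared slide 3 with WT replicate 5, the other WT arrays lay on slides 1 and 2, and the TAKI arrays lay alone on slides 4 and 5. No within-slide value therefore exists for the comparisons with TAKI. When slides entered the fit as a random block, 0 of the 8 genes and 444 of all genes passed in TAKI against WT livers, with an adjusted p of 0.267 for Glul. Genes called in TAKI against WT livers also followed the position of the spot. On rows 1 to 266 of the array 375 were higher and 5 lower, and on rows 267 to 532 the counts were 8 higher and 187 lower. In TEKI against TAKI livers 16 called genes were higher and 197 lower on rows 1 to 266. On rows 267 to 532 of that comparison 489 were higher and 2 lower. The part of spot position in any single difference was not tested. All 7 measured hepatocyte markers were well above background on all 13 arrays. Their summed signal, in multiples of the 75th percentile, ranged over 1444 to 2141 in TAKI, 1929 to 2711 in TEKI and 1722 to 2297 in WT livers, and those ranges overlapped. In bulk tissue, fewer pericentral hepatocytes and less RNA per pericentral hepatocyte cannot be told apart.

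Glul was read by probe A_52_P101279 at chr1:153870358-153870417 on the plus strand, in the array header's build mm7. Coordinates of all probes below are of that build, and whether they lie in coding sequence or a UTR was not annotated here. Its level was 6.27, 6.23, 6.27, 5.93 and 5.92 in TAKI replicates 1 to 5, 6.31, 6.52 and 6.80 in TEKI replicates 1 to 3, and 6.60, 6.59, 6.41, 6.38 and 6.28 in WT replicates 1 to 5. Every TAKI liver lay below every WT liver and below every TEKI liver. The margin to WT was narrow, with 6.27 as the highest TAKI and 6.28 as the lowest WT value. Groups that did not overlap were found for 1 of the 8 genes in TAKI against WT, against 7.49% of all genes and 1.86% in that direction. The same held for 1 of the 8 genes in TEKI against TAKI, against 8.29% of all genes and 5.55% in that direction, and for 0 of the 8 in TEKI against WT, against 3.93%. TAKI livers averaged 6.12 ± 0.18 (SD, n = 5), TEKI livers 6.54 ± 0.24 (SD, n = 3) and WT livers 6.45 ± 0.14 (SD, n = 5).

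The difference between TAKI and WT livers was -0.33 ± 0.12 (SE) on the log2 scale, a ratio of 0.797 with a 95% interval of 0.663 to 0.958, and its adjusted p was 0.214 (limma). The difference between TEKI and TAKI livers was 0.42 ± 0.14 (SE), a ratio of 1.34 with an interval of 1.08 to 1.65, and its adjusted p was 0.190. TEKI and WT livers overlapped and differed by 0.09 ± 0.14 (SE), with an adjusted p of 0.859. The order of the means from low to high was thus TAKI, WT, TEKI, with no pair past the adjusted threshold. Under 1 alternative Glul passed: with arrays weighted by quality, the TAKI minus WT difference was -0.41 with an adjusted p of 0.031, and over all alternatives that adjusted p ran from 0.031 to 0.696. With no scaling between arrays the difference was -0.11 with an adjusted p of 0.696, and the unscaled intensities of 60683 to 68031 in TAKI livers lay inside the 52451 to 88496 of WT livers. The TEKI minus TAKI difference was 0.15 with no scaling and 0.14 with arrays divided by their median, with adjusted p of 0.632 and 0.806.

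A second Glul probe, A_51_P441798, lay at chr1:153869393-153869452 on the plus strand. It read 0.23, 0.32, 0.42, 0.29 and 0.38 in TAKI livers, 0.49, 0.62 and 1.02 in TEKI livers, and 0.49, 0.88, 0.78, 0.94 and -0.21 in WT livers. TAKI livers lay below all TEKI livers again, but WT replicate 5 lay below every TAKI liver. The difference between TAKI and WT was -0.25 ± 0.20 (SE) with an adjusted p of 0.672 when every probe was tested alone. Deviations of the 2 probes from their genotype means correlated at Pearson's r = 0.43 over the 13 arrays, given as a description. Glul lies on row 135, in the part of the array where most called genes were higher in TAKI.

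Slc1a2 was read by 4 probes, 3 of them on the plus strand and well above background on all 13 arrays. The tested one, A_52_P168496 at chr2:102628336-102628395, read 3.67, 2.68, 3.93, 2.90 and 3.53 in TAKI livers, 3.49, 3.19 and 3.87 in TEKI livers, and 3.50, 2.66, 3.07, 3.06 and 3.68 in WT livers. All 3 genotypes overlapped, and livers of one genotype differed among themselves by more than the genotype means did. The differences were 0.15 ± 0.27 (SE) for TAKI minus WT, 0.32 ± 0.31 (SE) for TEKI minus WT and 0.17 ± 0.31 (SE) for TEKI minus TAKI, with adjusted p of 0.869, 0.726 and 0.874. The 95% interval for TAKI minus WT, as a ratio, ran from 0.741 to 1.66.

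The other 2 plus-strand probes of Slc1a2 ranked the livers in a similar way. A_51_P477875 at chr2:102628431-102628490 correlated with the tested probe at r = 0.97, and A_51_P179878 at chr2:102641473-102641532, which the files name 2900019G14Rik, at r = 0.78 (deviations from genotype means, 13 arrays). They differed in the sign of TAKI minus WT, which was 0.16 ± 0.23 (SE) with A_51_P477875 and -0.08 ± 0.21 (SE) with A_51_P179878. The fourth probe, A_52_P311194 at chr2:102595131-102595190, is annotated on the opposite strand and was above background on 9 of 13 arrays. Its correlation with the tested probe was 0.18, and its readings of -5.29 to -4.53 in TAKI, -5.28 to -4.34 in TEKI and -5.45 to -3.16 in WT livers are not taken as Slc1a2 message.

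Oat, read by A_51_P141535 at chr7:128962937-128962996 on the minus strand, stood at 7.18, 6.51, 7.87, 7.23 and 7.47 in TAKI livers, 7.38, 7.35 and 7.62 in TEKI livers, and 7.47, 6.91, 6.90, 7.16 and 7.42 in WT livers. TAKI replicates 2 and 3 held the lowest and the highest value of all 13 livers. The TAKI spread (SD 0.50, n = 5) exceeded that of TEKI (SD 0.15, n = 3) and WT livers (SD 0.27, n = 5), a difference in spread that was not tested. Oat differed by 0.08 ± 0.22 (SE) for TAKI minus WT, 0.28 ± 0.25 (SE) for TEKI minus WT and 0.20 ± 0.25 (SE) for TEKI minus TAKI. Adjusted p ran from 0.710 to 0.923 over those comparisons.

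Rhbg, read by A_51_P400366 at chr3:88357144-88357203 on the minus strand, had the widest spread of the 8 genes, with a pooled SD of 0.46 between livers of one genotype. It read 1.77, 1.83, 2.77, 2.30 and 2.60 in TAKI livers, 2.59, 2.35 and 2.81 in TEKI livers, and 1.93, 2.46, 2.001, 1.35 and 1.11 in WT livers. TEKI livers lay above 4 of the 5 WT livers, and WT replicate 2 lay between TEKI replicates 1 and 2. Averages were 2.25 ± 0.45 (SD, n = 5) in TAKI, 2.58 ± 0.23 (SD, n = 3) in TEKI and 1.77 ± 0.54 (SD, n = 5) in WT livers. The difference between TEKI and WT livers was 0.81 ± 0.31 (SE), a ratio of 1.76 with a 95% interval of 1.09 to 2.83, with an adjusted p of 0.392 (limma). TAKI minus WT was 0.49 ± 0.27 (SE) with an adjusted p of 0.464, and TEKI minus TAKI 0.33 ± 0.31 (SE) with an adjusted p of 0.745.

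The Rhbg difference depended on the WT livers it was set against. Within slide 3, which holds the 3 TEKI arrays and WT replicate 5, the TEKI minus WT difference was 1.48, and WT replicate 5 was the lowest of all 13 livers. Without that liver the difference was 0.65. Over all alternatives it ran from 0.39 to 1.48, with the adjusted p at 0.215 or above. WT replicates 1, 2 and 4 share slide 1 and spanned 1.35 to 2.46 within it.

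**Figure D1:**
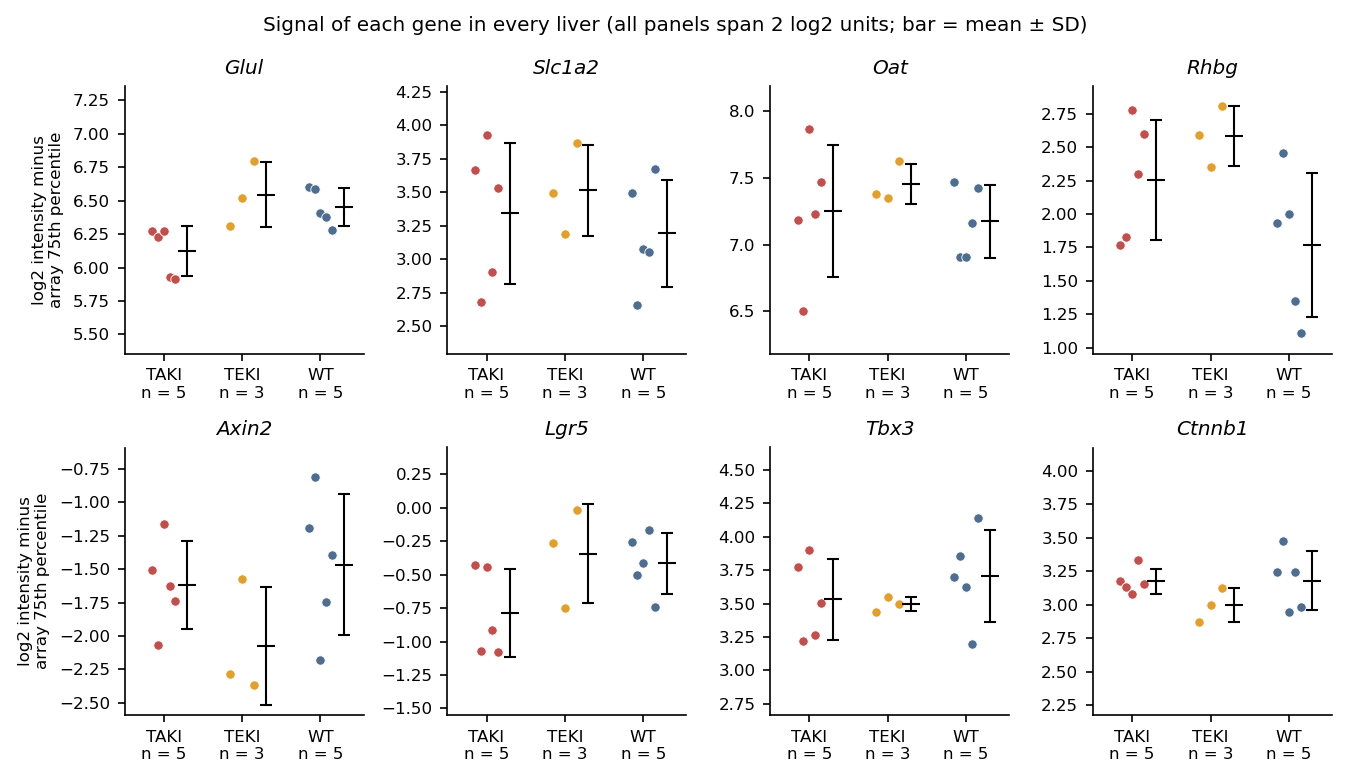
Level of each of the 8 genes in every liver (vertical axis, log2 intensity minus the 75th percentile of the array) for TAKI, TEKI and WT mice; each dot is 1 mouse, bars give the mean ± SD, and every panel spans the same height in log2 units. The 5 TAKI dots of Glul, between 5.92 and 6.27, lie below all TEKI and WT dots, and in the other 7 panels every pair of genotypes overlaps.

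Axin2 was read by A_52_P54176 at chr11:109059707-109059766 on the plus strand, well above background on all 13 arrays. It read -1.51, -2.07, -1.16, -1.62 and -1.74 in TAKI livers, -2.28, -1.57 and -2.37 in TEKI livers, and -1.19, -0.81, -2.18, -1.75 and -1.40 in WT livers. TEKI replicates 1 and 3 lay below every other liver, while TEKI replicate 2 lay among the rest. Averages were -1.62 ± 0.33 (SD, n = 5) in TAKI, -2.07 ± 0.44 (SD, n = 3) in TEKI and -1.47 ± 0.52 (SD, n = 5) in WT livers. TEKI minus WT was -0.61 ± 0.30 (SE) with an adjusted p of 0.454, TAKI minus WT -0.15 ± 0.26 (SE) with 0.861, and TEKI minus TAKI -0.45 ± 0.30 (SE) with 0.611. Within slide 3 the TEKI minus WT difference of Axin2 was -0.68.

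Lgr5 had 2 probes, of which only A_51_P218091 at chr10:114958025-114958084 on the minus strand was measured. It read -0.43, -1.07, -0.44, -0.91 and -1.08 in TAKI livers, -0.26, -0.75 and -0.02 in TEKI livers, and -0.26, -0.50, -0.41, -0.16 and -0.74 in WT livers. TAKI replicates 2, 4 and 5 were the 3 lowest livers, and TAKI replicates 1 and 3 lay inside the WT range. TAKI minus WT was -0.37 ± 0.18 (SE) with an adjusted p of 0.392, and TEKI minus TAKI 0.44 ± 0.21 (SE) with an adjusted p of 0.448 (limma). TEKI and WT livers differed by 0.07 ± 0.21 (SE), with an adjusted p of 0.937. The order TAKI, WT, TEKI from low to high was that of Glul, with no neighbouring pair past the threshold. The TEKI minus WT part of it changed sign in 4 of 28 alternatives for Lgr5 and in 3 of 28 for Glul. The second probe, A_52_P30169, was well above background on 0 of 13 arrays.

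Tbx3 was read by A_52_P183368 at chr5:118918450-118918509 on the plus strand. It stood at 3.77, 3.22, 3.90, 3.27 and 3.50 in TAKI livers, 3.44, 3.55 and 3.50 in TEKI livers, and 3.70, 3.86, 3.63, 3.20 and 4.14 in WT livers. WT replicate 5 was the highest and WT replicate 4 the lowest of all 13 livers, so the WT range enclosed both knock-in groups. TAKI minus WT was -0.17 ± 0.18 (SE), TEKI minus WT -0.21 ± 0.21 (SE) and TEKI minus TAKI -0.04 ± 0.21 (SE), with adjusted p between 0.741 and 0.966. Its second probe, A_52_P389431, was well above background on 1 of 13 arrays, TEKI replicate 1, and gives no level.

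Ctnnb1, the effector itself, had the smallest spread between livers, with a pooled SD of 0.16 against a median of 0.22 over 15510 genes above background on all arrays. Its tested probe, A_52_P424585 at chr9:120658490-120658549 on the plus strand, read 3.18, 3.14, 3.08, 3.33 and 3.15 in TAKI livers, 2.87, 3.00 and 3.13 in TEKI livers, and 3.25, 3.48, 2.95, 3.25 and 2.98 in WT livers. The genotypes overlapped. TAKI minus WT was 0.00 ± 0.11 (SE) with a 95% interval of -0.25 to 0.24, TEKI minus WT -0.18 ± 0.13 (SE) with an interval of -0.46 to 0.10, and TEKI minus TAKI -0.18 ± 0.13 (SE) with an interval of -0.46 to 0.10. This is the tightest bound in the set: the TAKI to WT ratio lay between 0.843 and 1.18.

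A second Ctnnb1 probe, A_51_P272046 at chr9:120657994-120658053, is printed on 10 spots spread over rows 66 to 448 and so measures the technical error within an array. The coefficient of variation over the 10 spots was 2.44% to 5.92% per array. The TAKI minus WT difference read from single spots ran from -0.02 on row 87 to 0.09 on row 448, and TEKI minus WT from -0.19 on row 385 to -0.13 on row 168. Averaged over spots, the probe gave 0.04 ± 0.10 (SE) for TAKI minus WT and -0.16 ± 0.11 (SE) for TEKI minus WT. The remaining probe, A_52_P472397 at chr9:120654491-120654550, gave -0.25 ± 0.32 (SE) and -0.07 ± 0.37 (SE) for the same pair of comparisons. None of the 3 probes passed in any comparison.

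**Figure D2:**
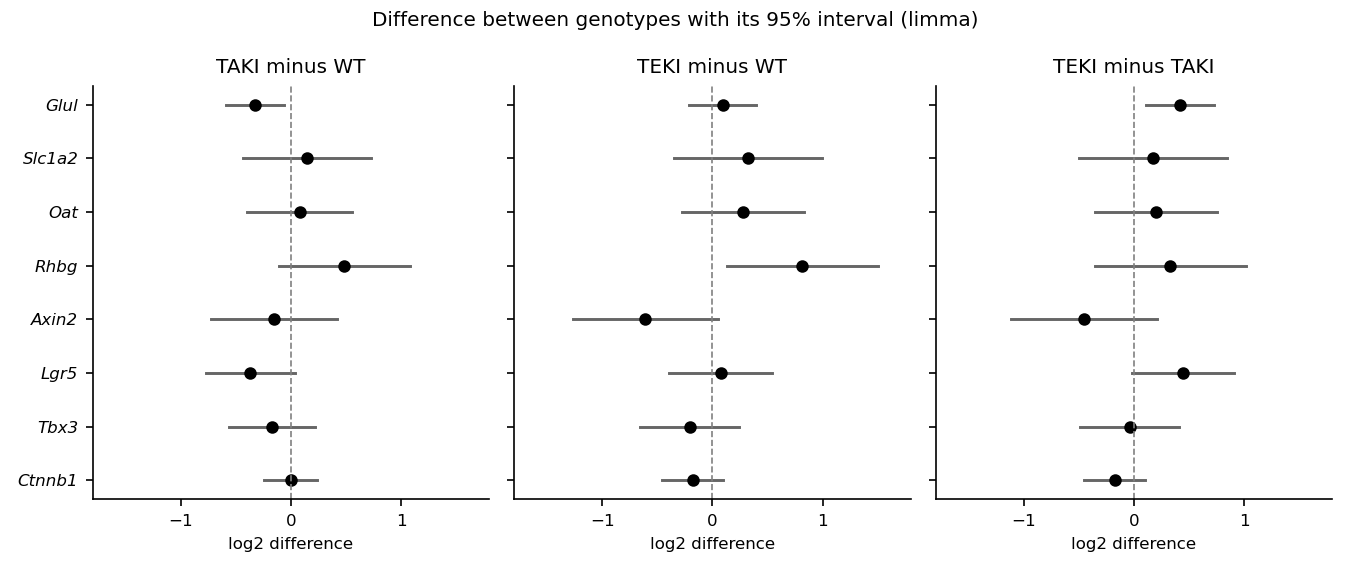
Difference between genotypes on the log2 scale (horizontal axis) for each gene, with dots for the limma estimate and lines for the 95% interval, in 3 comparisons. The interval lies clear of 0 for Glul in TAKI minus WT and in TEKI minus TAKI and for Rhbg in TEKI minus WT, and Ctnnb1 has the shortest lines.

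Across the 8 genes, 3 lay above and 5 below WT in TAKI livers, with a median difference of -0.08 against 0.00 over all genes tested. In TEKI livers 5 lay above and 3 below WT, with a median of 0.08 against 0.07. Between TEKI and TAKI livers 5 lay above and 3 below, with a median of 0.19 against 0.06. TAKI and TEKI share the WT livers in these comparisons, and the TEKI minus TAKI difference is made of the same values, so the 3 sets of values are not independent. For single genes the sign could hang on the scaling: dividing each array by its median in place of its 75th percentile shifted the median of all genes by -0.15 in TAKI minus WT, -0.43 in TEKI minus WT and -0.28 in TEKI minus TAKI. Under that scaling the TEKI minus WT difference of Glul was -0.34, against 0.09 with the 75th percentile.

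**Figure D3:**
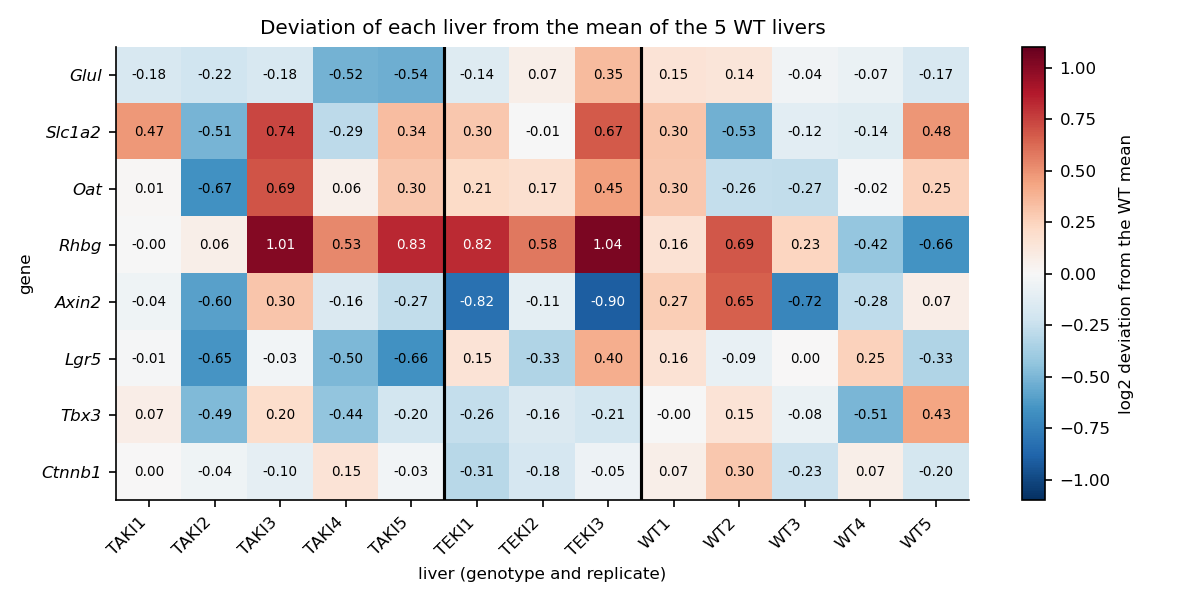
Deviation of each liver (columns, TAKI, TEKI and WT divided by lines) from the mean of the WT livers for each gene (rows), in log2 units printed in the cells. Glul is below 0 in all 5 TAKI livers, and also in TEKI replicate 1 and WT replicates 3, 4 and 5. Rhbg is above 0.5 in all 3 TEKI livers, and also in TAKI replicates 3, 4 and 5 and WT replicate 2.

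How the genes varied between livers of one genotype was examined over all 28 pairs, after the mean of each genotype had been removed. One pair passed: Slc1a2 and Oat, at Pearson's r = 0.84 over 13 livers (permutation test within genotypes, 100000 resamples, two-sided, p = 0.00114, adjusted over 28 pairs 0.0319). The share of pairs outside the set that would pass the same test was not computed, so the count has no background to be set against. Spearman's rho was 0.78 (p = 0.0057, adjusted 0.160). In TAKI livers replicate 3 was highest and replicate 2 lowest for both genes, and in TEKI livers replicate 3 was highest for both. Leaving out the 2 livers farthest from the median of Oat gave r = 0.74, and leaving out TEKI replicate 1 gave r = 0.84 with an adjusted p of 0.0574. Centring on each slide within a genotype, which uses 11 arrays, gave r = 0.97, with no test. The same centring moved other pairs in both directions. Oat with Lgr5 went from 0.37 to 0.78 and Tbx3 with Rhbg from 0.14 to 0.69, while Oat with Axin2 went from 0.39 to 0.20. With quantile normalization r was 0.68 and no pair passed.

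The other pairs did not pass. Slc1a2 and Tbx3 followed at r = 0.62 (adjusted p = 0.646), Axin2 and Tbx3 at r = 0.55 (0.646), and Glul and Lgr5 at r = 0.52 (0.646). Glul, the enzyme that uses the glutamate, correlated at r = 0.14 with Slc1a2 and 0.00 with Oat. Ctnnb1 correlated with its own target Axin2 at r = 0.44 (adjusted p = 0.661). The median over 28 pairs was 0.23 and the lowest was Slc1a2 with Ctnnb1, at -0.37.

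**Figure D4:**
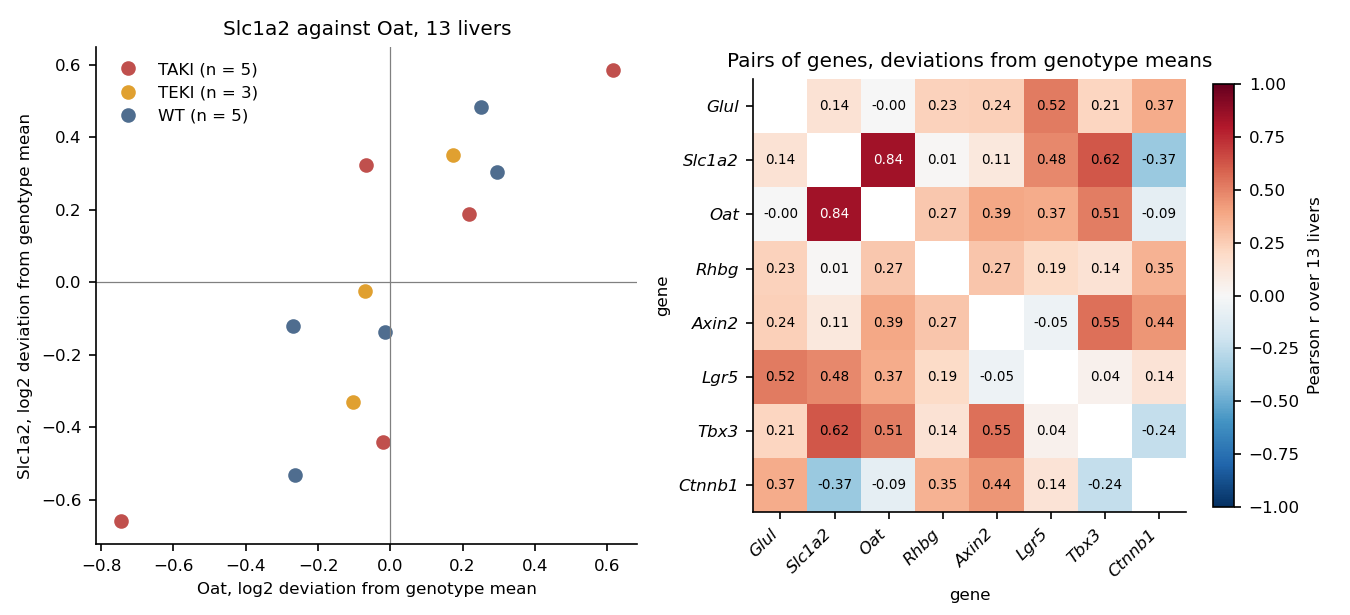
Left, deviation of Slc1a2 (vertical) against deviation of Oat (horizontal) from the genotype means in log2 units, with 1 dot for each of 13 livers coloured by genotype; right, Pearson's r for all 28 pairs of genes as colours and printed values. The dots of Slc1a2 and Oat run from lower left to upper right in all 3 genotypes, and the pair has the highest value, 0.84.

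Set against all other genes tested, each member had close followers, chosen as the highest r over the 13 livers among 20346 genes. They are named as a description, since the highest of so many values is large by selection. The nearest to Glul were Cdc23 (r = 0.91) and Nek9 (0.84), and to Lgr5 Dicer1 (0.92) and Morc2b (0.89). The nearest to Tbx3 were C1ra (0.92) and Lipc (0.89), to Ctnnb1 Ubqln2 (0.93) and Asph (0.93), and to Rhbg Antxr2 (0.86) and Spata2 (0.86). Axin2 was followed by Mszf81 (0.87) and Cbx8 (0.85). For Slc1a2 the second was Mc1r (0.98), after a transcript that the files list without a gene symbol (0.99), and for Oat both were unnamed models (0.95 and 0.92).

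Within the zonation lists, Slc1a2 and Oat had the same nearest pericentral gene, Cyp2e1, an ethanol-metabolising cytochrome P450, at r = 0.94 and r = 0.84. Slc1a2 reached the same value with Igf1 (r = 0.94), which is on the periportal list, and its lowest was Sox4 (-0.91). The median r of Slc1a2 was 0.41 over 21 other pericentral genes and 0.31 over 22 periportal genes, against 0.16 over all genes above background on 13 arrays. For Oat these medians were 0.17, 0.10 and 0.08, and for Glul -0.04, -0.02 and -0.03. The extremes were picked after their values were seen, and none of these correlations carries a test.

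The rest of the pericentral programme did not pass either. Of 21 other pericentral hepatocyte genes, 0 rose and 0 fell in TAKI or TEKI livers against WT (limma), and at an unadjusted p under 0.05 there were 3 in TAKI and 0 in TEKI livers. In TAKI livers 6 lay above WT with a median of -0.08, and in TEKI livers 16 lay above WT with a median of 0.16, against 0.00 and 0.07 over all genes. Slc13a3, a dicarboxylate transporter, came nearest in TAKI livers, averaging 0.57 in TAKI, 1.20 in TEKI and 1.22 in WT livers. Its TAKI minus WT difference was -0.65 ± 0.18 (SE) with an adjusted p of 0.085. Slc22a3, an organic cation transporter, differed by 0.35 ± 0.15 (SE) in TAKI minus WT, with an adjusted p of 0.317. In TEKI livers Gulo, the last enzyme of ascorbate synthesis, differed from WT by 0.26 ± 0.14 (SE, adjusted p = 0.487). In the same comparison Cyp2e1 differed by 0.22 ± 0.18 and the paraoxonase Pon1 by 0.28 ± 0.23 (SE).

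Periportal genes served as the opposite zone. Of 22, 0 passed in either comparison with WT (limma), also at an unadjusted p under 0.05. In TAKI livers 18 lay above WT, with a median of 0.04 and a range of -0.18 to 0.43, and in TEKI livers 8 lay above, with a median of -0.03. Cathepsin C (Ctsc) differed by 0.43 ± 0.24 (SE) and the steroid hydroxylase Cyp17a1 by 0.40 ± 0.19 (SE) in TAKI minus WT, with adjusted p of 0.455 and 0.343.

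Other Wnt target genes gave 0 calls among 16 tested of 19 listed (limma), and at an unadjusted p under 0.05 there were 2 in TAKI and 1 in TEKI against WT livers. Apcdd1, a membrane inhibitor of the pathway, averaged -1.77 in TAKI, -2.81 in TEKI and -3.36 in WT livers, a TAKI minus WT difference of 1.59 ± 0.43 (SE) with an adjusted p of 0.079. Sp5, a transcription factor that follows beta-catenin closely in many tissues, differed by -0.26 ± 0.17 (SE) in TAKI and -0.22 ± 0.19 (SE) in TEKI minus WT, with adjusted p of 0.537 and 0.690. Nkd1, which binds Dishevelled, differed by 0.00 ± 0.09 and 0.27 ± 0.10 (SE), with adjusted p of 0.992 and 0.392. Notum, which inactivates Wnt ligands by deacylation, differed by 0.12 ± 0.11 and 0.26 ± 0.13 (SE). Lgr6, close kin to Lgr5, was above background on 6 arrays and differed by 0.91 ± 0.40 (SE) in TAKI minus WT with an adjusted p of 0.319.

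Upstream of the members, 1 of 20 tested Wnt ligands and R-spondins rose in TAKI livers, where 1.88% of all genes rose. Rspo4, an R-spondin of the kind that binds Lgr receptors, averaged -1.49 in TAKI, -2.63 in TEKI and -3.20 in WT livers, a TAKI minus WT difference of 1.70 ± 0.27 (SE) with an adjusted p of 0.007. Wnt11 and Wnt6 differed by 1.13 ± 0.34 and 1.01 ± 0.30 (SE), with adjusted p of 0.113 and 0.115. All 3 probes lie on rows 28 to 181 of the array, within rows 1 to 266, where 375 of the 380 called genes were higher in TAKI. Among 13 secreted and membrane Wnt inhibitors, 1 rose in TAKI livers: Dkkl1, which is related to the Dickkopf proteins, by 0.89 ± 0.16 (SE) with an adjusted p of 0.011, on row 15. Rspo4 passed in 25 of 25 alternatives and Dkkl1 in 22 of 25, the exceptions being median scaling, quantile normalization and normexp. In TEKI against WT livers 0 of the ligands and 0 of the inhibitors passed.

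No receptor, destruction complex or TCF/LEF gene passed against WT. Of 19 receptors and co-receptors the nearest was Ror2, a receptor of Wnt5a-type signals, with 0.70 ± 0.19 (SE) in TAKI minus WT and an adjusted p of 0.088, on row 50. Of 13 destruction complex genes the nearest was Csnk1a1, the kinase that primes beta-catenin, with -0.19 ± 0.08 (SE) in TAKI minus WT and an adjusted p of 0.289. At an unadjusted p under 0.05 (limma) there were 2 of the 13 in TAKI and 4 in TEKI against WT livers, where 14.7% and 11.6% of all genes were. The lowest adjusted p among them in TEKI against WT was 0.391. Of 13 TCF/LEF factors and coactivators Pygo2 differed by -0.29 ± 0.13 (SE) in TAKI minus WT, with an adjusted p of 0.356. In TEKI against TAKI livers Wnt11, Ror2 and Dkkl1 fell, with differences of -1.58, -0.99 and -0.73 and adjusted p of 0.0475, 0.0312 and 0.0496, in a comparison where 0.976% of all genes fell, a share that was 3.54% without TEKI replicate 1. Wnt11 passed in 9 of 24 alternatives, Ror2 in 16 of 25 and Dkkl1 in 5 of 25, and with the probes of a gene averaged the Ror2 difference was 0.41. The probes of Wnt11, Ror2 and Dkkl1 lie on rows 28, 50 and 15. On rows 1 to 266, 197 of the 213 genes called in TEKI against TAKI livers were lower.

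Glutamate, glutamine and ammonia handling beyond the members gave 0 calls among 20 tested genes in either comparison with WT, with medians of -0.01 in TAKI and 0.09 in TEKI livers. Slc38a5, a glutamine transporter, was above background on 5 arrays and differed by -0.90 ± 0.33 (SE) in TAKI minus WT (adjusted p = 0.205). Slc1a1, another glutamate transporter, differed by 0.72 ± 0.32 (SE) in TAKI and 0.87 ± 0.37 (SE) in TEKI minus WT, with adjusted p of 0.324 and 0.418. Rhcg, kin to Rhbg, differed by 0.49 ± 0.42 and 1.59 ± 0.49 (SE), with adjusted p of 0.680 and 0.391. The 8 adherens junction partners, which bind the pool of beta-catenin at the cell membrane, also gave 0 calls. Jup (gamma-catenin) differed by -0.30 ± 0.11 (SE) in TAKI minus WT with an adjusted p of 0.239.

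**Figure D5:**
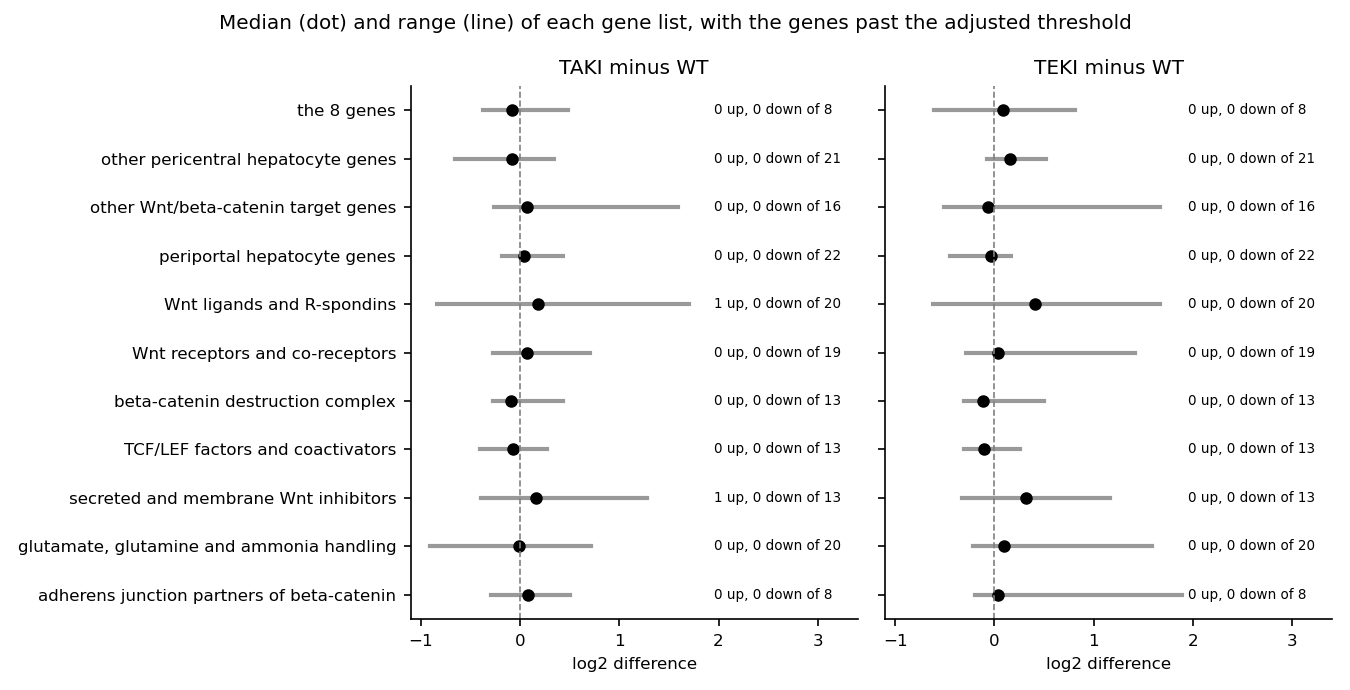
Median (dot) and range (line) of the log2 difference (horizontal axis) over the tested genes of each list (rows), for TAKI minus WT and TEKI minus WT, with the number of genes past the adjusted threshold printed at the right. Medians lie between -0.12 and 0.40, and the 2 calls in TAKI livers are among the ligands and R-spondins and among the inhibitors.

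Markers of other cell types were summed for each liver, in multiples of the 75th percentile, with no test of the sums. Endothelial markers, which include the cells that feed Wnt ligands to the pericentral ring, summed to 25.9 to 32.5 in TAKI, 28.3 to 35.2 in TEKI and 19.7 to 27.5 in WT livers. The TEKI sums thus lay above all WT sums. Of 9 genes 0 passed the threshold, and 8 lay above WT in TAKI and 7 in TEKI livers, with medians of 0.23 and 0.34. At an unadjusted p under 0.05 (limma) there were 3 in TAKI and 4 in TEKI livers against WT, where 14.7% and 11.6% of all genes were. Lymphocyte markers summed to 2.27 to 3.35 in TAKI, 2.60 to 3.73 in TEKI and 1.73 to 2.98 in WT livers. All 8 lay above WT in TAKI livers, with a median difference of 0.55. In TEKI livers 7 of 8 lay above WT, with a median of 0.43 and 0 past the threshold. Between TEKI and TAKI livers the median of these markers was -0.002. In TAKI livers 2 of 8 rose, among them Cd2, a surface protein of T cells, by 1.05 with an adjusted p of 0.003, where 1.88% of all genes rose. Cd2 passed in 23 of 25 alternatives. Of 7 pancreatic acinar markers, 1, Cpb1, rose in TAKI livers, by 1.68 with an adjusted p of 0.040, and passed in 12 of 24 alternatives. In TEKI against WT livers the acinar median was 1.31, with 0 past the threshold and 4 of 7 at an unadjusted p under 0.05. Only 3 of the 7 were well above background on all 13 arrays. The acinar sums were small, at 1.11 to 1.51 in TAKI, 1.43 to 1.73 in TEKI and 0.80 to 1.25 in WT livers. Cd2 and Cpb1 were picked after their values were seen. Of 8 macrophage, 8 stellate cell and 8 cholangiocyte markers, 0 passed against WT (limma), with 1 cholangiocyte marker at an unadjusted p under 0.05 in TAKI livers. The part of these other cells in the differences of the 8 genes was not tested.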

How the data were processed

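Liver RNA of 13 mice was hybridised to 1-colour Agilent arrays, 500 ng of RNA an array per the labels' protocols. The authors deposited scanner files from Agilent Feature Extraction 9.5, per the submitters' processing notes. The deposited unit is intensity on a linear scale, background-subtracted and detrended inside each array and not scaled across arrays, per the file headers. The same values stand in the deposited value table.

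Here control spots and spots flagged as non-uniform or population outliers were left out, log2 was taken, the 75th percentile of the array subtracted and spots of a probe averaged. The probe of highest mean stood for each gene, if well above background on at least 3 arrays. Genotypes were compared with limma 3.58.1 in R 4.3.3 (1 factor, all 13 arrays, Benjamini-Hochberg, threshold 0.05), after a test on simulated data. Pairs of genes were correlated with 100000 permutations. Named genes are the 8 members, for each list the 3 genes of smallest p in TAKI and in TEKI against WT, and the 2 genes of most similar pattern. Members and lists were chosen with earlier results of these data known. Replicates are separate mice as the labels number them, and the number of arrays limits the precision. Replicate numbers did not pair samples: correlations of deviations ran from -0.23 to 0.32. Single genes of the lists that are not named are not reported here.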

Additional observations from a re-analysis of the deposited data

How the results depend on the processing

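None of the 8 genes passed under the alternatives tried, except Glul in TAKI against WT livers with array weights (1 gene, -0.41). Of 640 alternative values of the 24 differences, 35 changed sign, none of them past the threshold in either setting. Counts over all genes moved more. For TAKI against WT (575) they were 999 with median scaling, 880 with quantile normalization, 1015 with no scaling, 254 for probes above background on all arrays, 2312 with array weights and 1333 with only those 2 groups fitted. Leaving out 1 array gave 295 to 1312, the highest without TEKI replicate 1. For TEKI against WT (1) they were 2 with median scaling, 5 with quantile normalization, 0 with normexp, 2 with no filter, 0 for probes above background on all arrays, 2 with array weights, 0 with slide as a fixed block and 0 within slide 3. Leaving out 1 array gave 1 to 93, with 93 without TEKI replicate 2 and 17 without WT replicate 5. For TEKI against TAKI (704) they were 1131 with quantile normalization, 4195 with normexp (4024 higher, against 505 here) and 296 for probes above background on all arrays. Leaving out 1 array gave 408 to 1099. The cause of these shifts was not tested. The 1 correlated pair became 0 with quantile normalization, with Spearman's rho and without TEKI replicate 1. With the replicate block, a pairing that the labels do not support, 343 genes were called in TAKI against WT and 0 of the 8 genes. Against the scaling used here, median scaling shifted the median of all genes by -0.15, -0.43 and -0.28 in TAKI against WT, TEKI against WT and TEKI against TAKI, and no scaling by 0.22, -0.05 and -0.27.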
